A study of Mus musculus with 84 samples.

Results

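Wide H3K27me3 domains are long stretches of the genome in which peaks of the repressive histone mark H3K27me3 lie close together. Here a base pair was taken when it lay inside H3K27me3 peaks of 4 or more of the 10 control libraries, stretches separated by 5000 bp or less were joined, and joined intervals of 10000 bp or wider on autosomes were kept. This left 2262 domains of 13368 joined intervals in all. They covered 52.27 Mb, or 2.12% of the 2463 Mb of autosomes in the mouse build GRCm38 (mm10). The control libraries therefore chose the domains, and a lower cover of them in libraries of other groups is in part fixed by that choice. Differences on these domains are given as a description, with no test between libraries that set them and others. Tests use domains set without the libraries compared or, for single domains, set from all 20 H3K27me3 libraries alike.

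The libraries were made by CUT&Tag, in which an antibody guides a tagging enzyme to chromatin, from adipocyte nuclei of epididymal adipose tissue (epiAT) of male AdipoERCre x NuTRAP mice. In these mice the Adipoq promoter drives a tamoxifen-inducible Cre, and Cre-positive nuclei carry a biotin label by which they were pulled down from frozen tissue. All groups, controls included, carried both alleles and received tamoxifen before the diet began. In the 12-week cohort, H mice were 18 weeks old after 12 weeks of high-fat diet (HFD) and C mice were their chow-fed controls, whereas HC mice were 26 weeks old after 12 weeks of HFD and 8 weeks of chow and CC_s mice were their controls. In the 25-week cohort, HH mice were 31 weeks old after 25 weeks of HFD with CC_l mice as controls, and HHC mice were 39 weeks old after 25 weeks of HFD and 8 weeks of chow with CCC mice as controls. H and HH are called obese and HC and HHC weight-loss (WL) groups. Of the 84 libraries, 20 are for H3K27me3, with 3 each for C, CC_s, HC and HHC and 2 each for H, CC_l, HH and CCC, and the others are for H3K4me3, H3K27ac and H3K4me1. The cohorts differ in age, in time on HFD and in library set, which cannot be told apart.

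H3K27me3 is deposited by polycomb repressive complex 2, which is recruited to unmethylated CpG-rich sequence and spreads the mark along neighbouring nucleosomes. In differentiated cells it covers silent regulators of other lineages, in particular Hox genes, which specify position along the body axis, and other homeobox, forkhead, Sox, T-box and basic helix-loop-helix (bHLH) factors. H3K4me3 marks promoters, H3K27ac active promoters and enhancers, and H3K4me1 enhancers.

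The domains were rich in CpG pairs. Their GC content was 48.3%, against 41.9% over the autosomes, and they held 14.9 CpG pairs per kb against 8.51. Windows of 200 bp with a GC content of at least 50% and an observed over expected CpG ratio of at least 0.6 are called CpG-rich here. Such windows made up 4.08% of the domain sequence and 1.03% of the autosomes. They were found in 1598 domains (70.7%), whereas 31.5% of 144229 autosomal tiles of 17074 bp, the median domain width, held one. The 11106 narrower joined intervals had nearly the same composition, with 48.4% GC and 4.43% CpG-rich windows. CpG richness thus set wide and narrow intervals apart from the genome, but not from each other.

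The 200 bp with most CpG pairs in 4 domains of developmental genes and in both domains with the largest fall in cover in HFD and WL libraries, which lie on chromosome 1, are printed because they show how unlike these sequences can be. Capitals mark CG pairs, all are on the plus strand of GRCm38, and an autosomal window of this length had a median of 1 CG pair, with 8 or more in 1.8% of windows. In the domain of Hmx1, a homeobox gene of eye and ear development, the window lay at chr5:35391753-35391952 in Hmx1 coding sequence, held 34 CG pairs and was touched by H3K27me3 peaks in 14 of 20 libraries. In the domain of Pax7, which marks muscle stem cells, the window at chr4:139821468-139821667 was intronic, with 31 pairs and peaks in 16 libraries. In the Hoxc domain the window at chr15:102981910-102982109 was in Hoxc9 coding sequence, with 35 pairs but peaks in only 3 libraries. In the domain of Hoxb13 the window at chr11:96203521-96203720 was intergenic, with 19 pairs and peaks in 16 libraries. The chromosome 1 window at chr1:183046285-183046484 held 10 pairs and lay 74208 bp from the nearest protein-coding start site, that of Tlr5, and the other, at chr1:36129794-36129993, held 8 pairs and lay 61494 bp from that of Hs6st1. They were touched by peaks in 8 and 7 libraries, every one of them a control. As these domains were chosen for their fall in the same libraries, this is in part fixed by the choice.
Hmx1 domain: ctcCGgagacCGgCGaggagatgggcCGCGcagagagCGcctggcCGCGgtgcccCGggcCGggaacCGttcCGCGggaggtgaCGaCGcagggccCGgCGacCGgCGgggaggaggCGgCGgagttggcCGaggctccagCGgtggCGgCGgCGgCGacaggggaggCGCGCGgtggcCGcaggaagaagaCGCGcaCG
Pax7 domain: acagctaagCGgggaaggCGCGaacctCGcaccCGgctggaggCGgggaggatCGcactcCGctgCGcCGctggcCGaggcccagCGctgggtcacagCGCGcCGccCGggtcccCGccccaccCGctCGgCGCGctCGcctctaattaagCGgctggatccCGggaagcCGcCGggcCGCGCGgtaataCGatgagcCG
Hoxc domain: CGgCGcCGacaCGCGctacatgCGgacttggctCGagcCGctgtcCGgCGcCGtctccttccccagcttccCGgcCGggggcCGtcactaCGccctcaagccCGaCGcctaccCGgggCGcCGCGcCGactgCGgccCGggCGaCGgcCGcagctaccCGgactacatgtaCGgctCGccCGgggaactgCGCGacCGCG
Hoxb13 domain: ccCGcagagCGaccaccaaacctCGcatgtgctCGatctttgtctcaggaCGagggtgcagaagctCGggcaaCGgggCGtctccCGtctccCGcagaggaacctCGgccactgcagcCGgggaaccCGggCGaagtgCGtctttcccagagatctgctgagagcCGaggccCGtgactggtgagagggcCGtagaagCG
Chromosome 1 domain, first: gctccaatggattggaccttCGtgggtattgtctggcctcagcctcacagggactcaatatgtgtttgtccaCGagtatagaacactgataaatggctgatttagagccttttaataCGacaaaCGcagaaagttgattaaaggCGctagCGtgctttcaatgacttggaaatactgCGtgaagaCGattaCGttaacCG
Chromosome 1 domain, second: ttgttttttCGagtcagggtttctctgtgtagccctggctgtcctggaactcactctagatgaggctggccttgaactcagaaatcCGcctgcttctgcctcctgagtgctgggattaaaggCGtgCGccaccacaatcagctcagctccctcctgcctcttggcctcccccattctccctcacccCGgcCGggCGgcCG

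Domain widths ran from 10000 to 218410 bp, and most domains were near the lower limit. There were 1383 domains under 20000 bp, 733 of 20000 bp to under 50000 bp and 146 of 50000 bp or more. Of the domain sequence, 69.4% was in peaks of 4 or more controls and the rest lay in the gaps that were joined. The 5 domains just inside the width limit were 10000 to 10008 bp wide and included 1 over Lta and Tnf, which encode inflammatory cytokines, and the 5 intervals just outside were 9978 to 9997 bp wide. Domains took the largest part of chromosomes 4 (3.15%), 11 (3.08%) and 5 (3.00%) and the smallest part of chromosome 3 (1.204%).

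**Figure D1:**
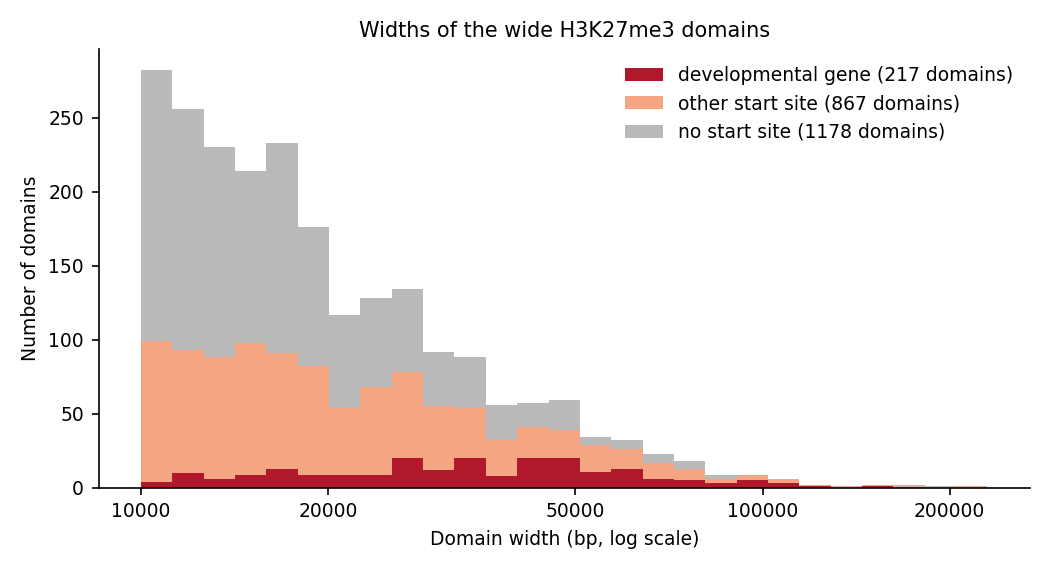
Number of domains (vertical axis) by domain width in bp (horizontal axis, log scale), with bars split by whether a domain holds a start site of a listed developmental gene, of another protein-coding gene, or of none. Most of the 2262 domains are under 20000 bp, and the 217 domains with a developmental gene, whose median width is 34084 bp, make up a growing part of the wider bins.

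A protein-coding start site lay in 1084 domains, and 1178 domains had none. Of those without, 490 touched the body of a protein-coding gene and 688 did not. The domains held 1305 of 20720 autosomal protein-coding genes (6.30%), or 25.0 genes per Mb against 8.41 per Mb over the autosomes. The share of domains with a start site was 39.7%, 57.2% and 79.5% in the narrow, middle and wide class, and the share with a gene of the developmental lists was 3.62%, 15.96% and 34.3%. Wider domains more often held genes, and no correction for their length was made.

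Of 369 annotated genes of 9 developmental lists, 245 (66.4%) had a start site in a domain, against 6.30% of all genes. Homeobox genes outside the Hox clusters had the highest share inside, with 108 of 123, followed by T-box and Gata genes (14 of 20), lineage zinc finger genes (25 of 37), Sox genes (8 of 12), Hox genes (23 of 39), forkhead genes (15 of 26) and bHLH lineage genes (26 of 50). Of the secreted ligands, 9 of 19 Wnt ligands and 17 of 43 other morphogens and antagonists were inside. The lists were not tested against each other. The lists were written with earlier results of these data known. Within the Hox clusters the domains took mainly the 5′ genes, which pattern the posterior body: Hoxa9, Hoxa10, Hoxa11 and Hoxa13, Hoxb5 to Hoxb9 and Hoxb13, Hoxc9 to Hoxc13, and Hoxd3, Hoxd4 and Hoxd8 to Hoxd13. Hoxb1 to Hoxb4 and Hoxc4 to Hoxc8, which lie nearer the 3′ ends of their clusters, lay outside.

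Marker genes of the cell types in epiAT were mostly outside the domains. Every list but that of adipocytes had a larger share inside than the 6.30% of all genes. That share ran from 7.14% of lymphocyte to 35.7% of endothelial markers, and it was not tested. Of 20 adipocyte markers 1 was inside, Adipoq. Inside were also 3 of 19 macrophage markers (C1qa, C1qb and C1qc, the complement C1q genes), 1 of 14 lymphocyte markers (Cd3e), 5 of 14 endothelial markers (Cdh5, Flt1, Erg, Esam and Robo4), 3 of 12 mesothelial markers (Krt19, Wt1 and Bnc1), 2 of 13 progenitor markers (Pdgfra and Pdgfrb), 1 of 9 mural markers (Rgs5) and 3 of 10 neuronal markers (Rbfox3, Nefl and Nefm). As a check of the labelled cell type, H3K4me3 was at the promoters of 17 to 20 of the 20 adipocyte markers in every library. H3K27ac was at all 20 in every control, but at 14 in HC replicate 3, 15 in H replicate 2 and HHC replicate 3, and 16 in HH replicate 1. The remaining HFD and WL libraries had 19 or 20. H3K4me1 was at 10 to 19 in controls and at 6 to 20 in HFD and WL libraries, lowest in HC replicate 3.

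The widest domain, at chr2:165054064-165272473, spanned 218410 bp with the start sites of Cd40, a costimulatory receptor of immune cells, Cdh22, a cadherin, and 1700025C18Rik. Its H3K27me3 cover, the share of its bp inside peaks of a library, was 63.3%, 73.7% and 67.1% in C, 13.3% and 17.9% in H, 64.0%, 67.1% and 69.0% in CC_s, and 38.8%, 7.25% and 31.6% in HC. In the 25-week cohort it was 88.4% and 77.9% in CC_l, 80.6% and 49.97% in HH, 80.8% and 74.0% in CCC, and 62.8%, 75.0% and 51.3% in HHC. Controls and diet libraries of the 12-week cohort did not overlap, whereas HH and CC_l, and HHC and CCC, did. The domain of Hmx1 and Adra2c (an adrenergic receptor gene) was 159248 bp wide, that of Grik3 (a kainate receptor subunit) 155827 bp, that of Fbln2 (fibulin-2, an extracellular matrix protein) 140145 bp and that of Pax7 119187 bp. Domains without a start site were among the widest too, at 194834 and 111209 bp on chromosome 6 and at 167500 bp inside Rbfox3. Those of Speer4d (165742 bp) and of C130026I21Rik (115744 bp) lie among multi-copy genes whose reads cannot be placed with certainty, and the latter had more cover in H than in C (mean 46.8% against 34.7%).

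Over all domains, H3K27me3 cover was 51.5% ± 5.13 (SD, n = 3) in C and 15.2% ± 1.85 (n = 2) in H, 49.8% ± 5.41 (n = 3) in CC_s and 18.9% ± 10.7 (n = 3) in HC. It was 65.8% ± 11.1 (n = 2) in CC_l and 50.1% ± 15.0 (n = 2) in HH, 54.0% ± 0.757 (n = 2) in CCC and 44.8% ± 9.59 (n = 3) in HHC. By library, C had 48.5%, 48.5% and 57.4%, H 13.9% and 16.5%, CC_s 44.3%, 50.1% and 55.1%, HC 27.7%, 7.01% and 21.9%, CC_l 73.6% and 58.0%, HH 60.7% and 39.4%, CCC 53.5% and 54.5%, and HHC 41.6%, 55.5% and 37.2%. The 12-week control and diet libraries did not overlap, and in the 25-week cohort they did in both pairs of groups. HC replicate 2 stands apart, with the shortest total peak length of the 20 libraries, 8.44 Mb, where the other 19 had 16.7 to 109.2 Mb. HC replicate 3 and HHC replicate 3 had the lowest cover over the Adipoq domain described below, 0% and 4.55%. Both are part of the HC and HHC values. At least 50% of the width was covered in 922 to 1354 domains in C, 706 to 1211 in CC_s, 45 and 82 in H and 8 to 217 in HC, and in 1358 and 1944 in CC_l, 600 and 1419 in HH, 1122 and 1189 in CCC and 549 to 1248 in HHC.

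**Figure D2:**
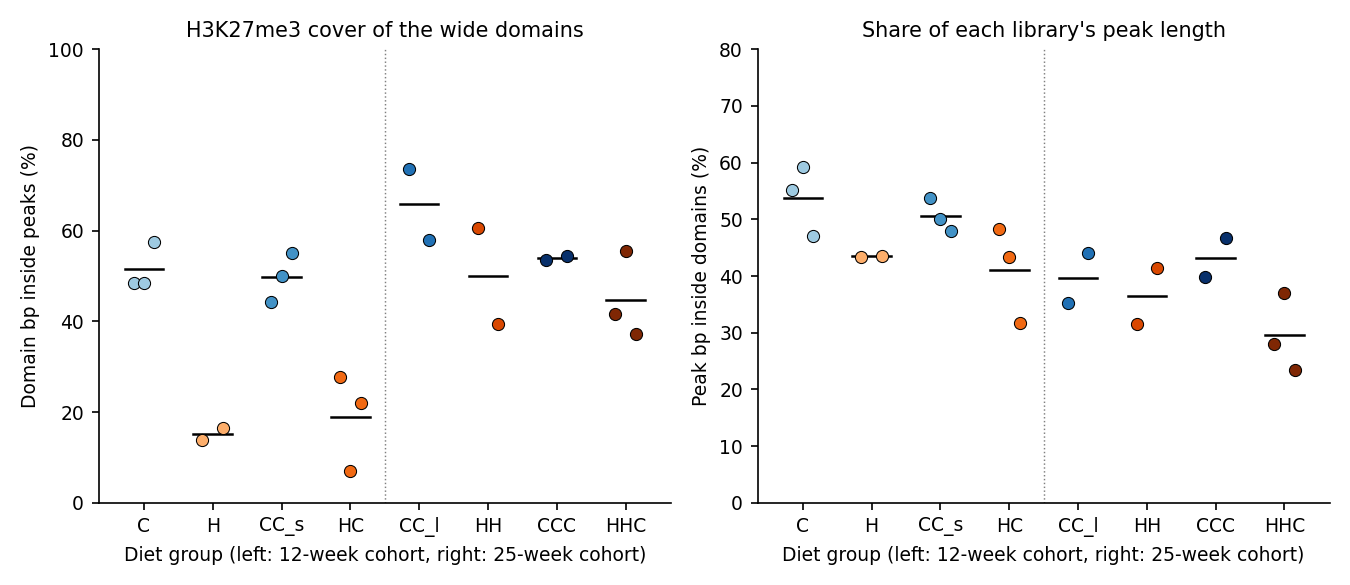
Left, share of the domains' bp inside H3K27me3 peaks (%) by diet group, with 1 point per library and the group mean as a line, and right, share of each library's peak length that lies in the domains (%). Cover is 13.9% and 16.5% in H and 7.01% to 27.7% in HC, below every 12-week control, while HH and HHC overlap CC_l and CCC.

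Total peak length was, like cover, lower on average in H, HC and HH than in their controls. In HHC it was higher than in CCC, although cover was lower. By group, total peak length was 42.8 to 63.8 Mb in C, 16.7 and 19.9 Mb in H, 43 to 60.1 Mb in CC_s, 8.44 to 36.2 Mb in HC, 68.9 and 109.2 Mb in CC_l, 49.8 and 100.5 Mb in HH, 61.1 and 70.1 Mb in CCC, and 77.6 to 82.6 Mb in HHC. The deposited peak lists hold no read totals, so depth is unknown and its part in these differences was not tested. The share of a library's peak length that lay in the domains ranged from 23.5% to 59.3%. In a bulk library, fewer nuclei with the mark and less mark per nucleus cannot be told apart.

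Cover was compared also on domains set in the controls of the other cohort by the same rule, so that no library compared had a part in setting them. The 25-week controls gave 2863 domains (66.43 Mb) for the 12-week libraries and the 12-week controls 1776 domains (39.28 Mb) for the 25-week libraries. On these domains, cover was 13.04% in H against 43.5% in C and 54.6% in HH against 69.7% in CC_l, a mean difference of -22.8 percentage points (two-sided exact permutation test with labels exchanged within age-matched groups, p = 0.0333, adjusted p = 0.0444 over 4 tests). After WL it was 16.4% in HC against 42.3% in CC_s and 48.7% in HHC against 58.0% in CCC, a mean difference of -17.6 points (exact permutation p = 0.02, adjusted p = 0.04). Within cohorts, the 12-week groups did not overlap in either comparison and the 25-week groups did in both. Without HC replicate 2 the WL difference was -15.0 points, with an adjusted p of 0.0533 by the same exact permutation test, and most single libraries decided whether the calls on these domains passed. The obese call was kept on leaving out 4 of the 20 libraries in turn and lost on leaving out the other 16, with differences of -28.3 to -17.6 points, and the WL call was kept for 7 and lost for 13, with -20.5 to -15.0 points.

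The share of peak length inside these independently set domains was 44.9% in HC against 54.6% in CC_s and 24.2% in HHC against 34.9% in CCC. This was a mean difference of -10.3 points after WL (two-sided exact permutation p = 0.02, adjusted p = 0.04). Within every control group the share was lower in libraries with more peak length, for example 63.7% at 42.8 Mb and 51.2% at 63.8 Mb in C. HHC libraries had more peak length than CCC libraries, and HC libraries less than CC_s libraries. In obesity the share was 47.4% in H against 57.7% in C and 30.1% in HH against 31.6% in CC_l. This was a difference of -5.90 points that did not pass (p = 0.15 by the exact permutation test, adjusted p = 0.15). This obese value depended on the processing, with -17.3 points at equal peak length (adjusted p = 0.0333 by exact permutation) and 1.06 points with gaps of 1000 bp (adjusted p = 0.717 by exact permutation). After WL the share of peak length in wide domains was smaller, with differences of -9.76 points in the 12-week cohort, where the groups overlapped, and -10.8 points in the 25-week cohort, where they did not. This call was kept on leaving out 8 of the 20 libraries in turn and lost for the other 12, with differences of -12.1 to -7.58 points. The limits of labellings and adjustment given above for leaving out libraries apply here too. None of the 3 calls passed when the domains were set with 60% of controls, gaps of 1000 bp, a width of 20000 bp or all 20 libraries (adjusted p 0.0533 to 0.34 by exact permutation). Obese and WL libraries were compared directly on the control-set domains, as neither had a part in setting them. The difference of obese minus WL cover was 0.826 points (exact permutation p = 0.92), with -3.66 points in the 12-week and 5.31 points in the 25-week cohort, so no difference was detectable with 10 libraries.

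The same rule applied to the 10 HFD and WL libraries in place of the controls gave 1528 domains of 32.32 Mb with a median width of 16002 bp and a largest width of 149763 bp. The sets shared 24.56 Mb, which was 47% of the control domain sequence and 76.0% of the diet domain sequence. Of the 2262 control domains 1090 touched a diet domain, and of the 1528 diet domains 1142 touched a control domain. As the sets were chosen on different libraries, the overlap is a description.

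Cover was higher in domains that held developmental genes, in all groups. In the 217 such domains it was 68.6% ± 3.91 (SD, n = 3) in C and 31.6% ± 4.10 (n = 2) in H, in the 867 domains with other start sites 52.3% ± 5.67 and 16.02% ± 1.49, and in the 1178 domains without a start site 44.4% ± 5.26 and 8.45% ± 1.35. After WL the same order held, with 32.2% ± 16.9, 19.7% ± 11.1 and 13.2% ± 8.05 in HC (n = 3) and 61.5% ± 10.9, 48.4% ± 9.19 and 35.3% ± 10.6 in HHC (n = 3). Cover also rose with the width class, for example from 45.4% to 52.8% and 59.7% in C and from 10.6% to 16.5% and 20.98% in H.

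The widest domains of the lists gave examples of each role. The Tbx5 domain, over a T-box factor of forelimb and heart, had a mean cover of 76.7% in C, 26.6% in H, 70.1% in CC_s, 29.4% in HC, 84.1% in CC_l, 66.9% in HH, 75.7% in CCC and 56.8% in HHC. That of Myod1, the master regulator of skeletal muscle, with Kcnc1 had 64.1%, 9.83%, 58.8%, 16.96%, 72.9%, 50.8%, 65.2% and 51.8% in the same order of groups. The forkhead gene Foxa2, a factor of endoderm, kept more of its cover in H and HC, with 69.4%, 43.2%, 71.6%, 39.6%, 76.5%, 71.3%, 64.5% and 59.95%. Among ligands, the domain of Rspo4, an enhancer of Wnt signalling, had less cover in all groups, with 38.5%, 2.95%, 35.4%, 10.9%, 45.1%, 29.8%, 37.6% and 27.04%. All were lower in H and HC than in their controls, which is in part fixed by the choice of domains.

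Within the control-set domains, cover was highest near CpG-rich windows. Within 1000 bp of such a window, cover was 68.9% in C and 31.0% in H, and at 5000 to 10000 bp from one it was 45.3% in C and 8.75% in H. The ratio of near to far cover was 1.36 to 1.77 in the 6 controls of the 12-week cohort, 3.91 and 3.26 in H, and 2.28, 3.45 and 2.34 in HC. In the 25-week cohort it was 1.27 to 1.60 in controls, 1.52 and 2.17 in HH, and 2.01, 1.45 and 1.53 in HHC. This measure was chosen after values had been seen and was not tested. The domains were set by peaks of controls, which favours cover far from a window in controls. Their lower ratios are therefore in part fixed by that choice. When every library was reduced to its strongest peaks up to 8.44 Mb, the 12-week ratios were 3.23 to 5.00 in controls, 5.75 and 5.09 in H, and 4.69, 3.45 and 4.89 in HC. H then lay just above the controls and HC overlapped them, and the 25-week ratios were 3.16 to 4.27 in controls, 3.49 and 7.69 in HH, and 5.33, 3.43 and 2.98 in HHC.

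**Figure D3:**
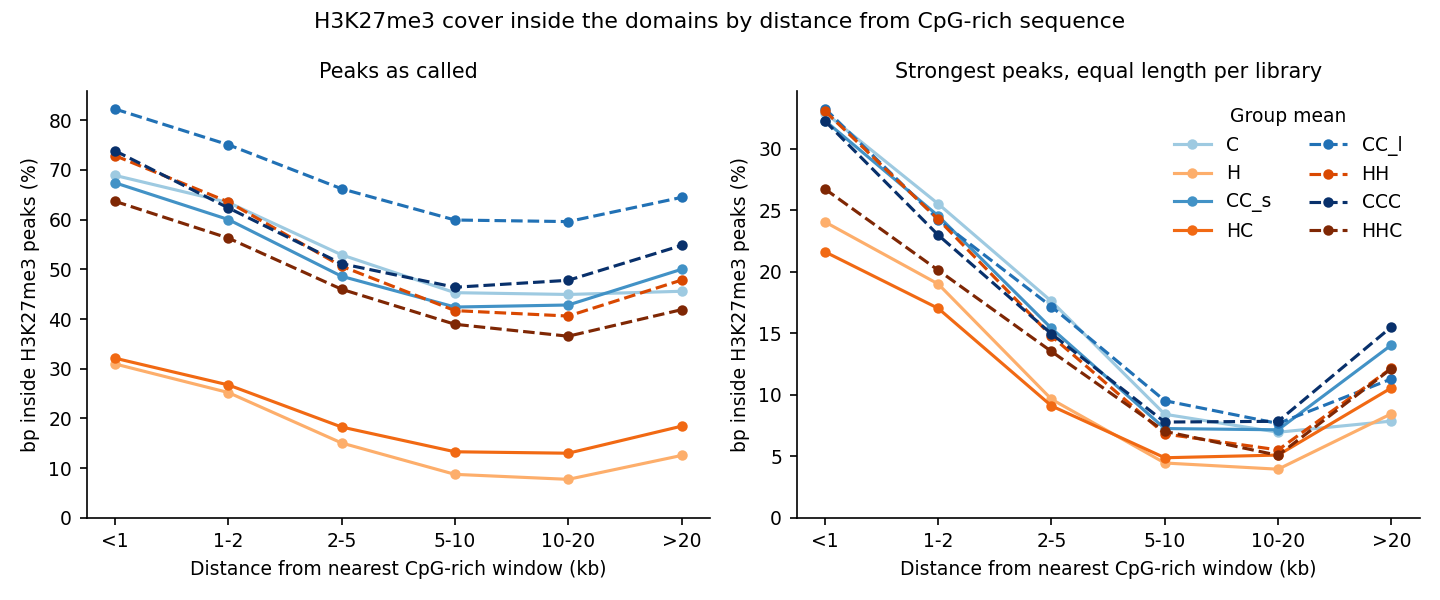
Group mean share of domain bp inside H3K27me3 peaks (%) against distance from the nearest CpG-rich window (kb), with peaks as deposited in 1 panel and at equal peak length per library in the other. As deposited, C falls from 68.9% within 1 kb to 45.3% at 5 to 10 kb and H from 31.0% to 8.75%.

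To ask which single domains differed, 1590 domains were set without regard to group, from bp in peaks of 8 or more of all 20 libraries. Of these, 1535 overlapped the control-set domains. The libraries compared thus had a part in setting the 1590, and peaks in 8 controls alone, or in 8 diet libraries alone, were enough. The counts by direction therefore depend in part on this choice. Diet and control libraries were compared with labels exchanged within age-matched groups, in an exact permutation test of 12000 labellings with Benjamini-Hochberg adjustment over all 1590. Cover was lower in 1062 (66.8%) and higher in 9 (0.566%), at an adjusted p of 0.0499 or less. Among the 1535 it was lower in 1061 (69.1%) and higher in 0, and 1137 of all 1590 had an unadjusted p under 0.05. The share among members is near the background because members make up nearly the whole table. The median difference was -22.4 points. The 12-week cohort alone gave 1392 calls and the 25-week cohort alone 0, with 123 at an unadjusted p under 0.05 by the same exact permutation test. The 12-week cohort allowed 200 labellings and the 25-week cohort 60, with smallest p of 0.005 and 0.0167 by that test. Calls after adjustment were thus harder to reach in the 25-week cohort, and these counts do not compare the size of effects.

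A difference shared by all domains was removed by taking each domain's cover minus the mean over the table in the same library. Then 187 (11.8%) were lower and 196 (12.3%) higher. All 187 lower ones and 148 higher ones were among the 1535. In domains of developmental genes, 11 of 213 (5.16%) were lower and 37 (17.4%) higher on this scale, and among those without a start site 102 of 681 (15.0%) were lower and 43 (6.31%) higher. At equal peak length per library, 33 (2.08%) were lower and 6 (0.377%) higher, each by the same exact permutation test and adjustment, and 349 had an unadjusted p under 0.05. In that setting 14 of 213 domains of developmental genes (6.57%), 14 of 641 with other start sites (2.18%) and 5 of 681 without (0.734%) were lower. The split of calls thus depended on the scale, and the shares of the classes were not tested against each other. At equal peak length the median difference was 0. In the control-set domains, mean cover in C at 5000 to 10000 bp from a CpG-rich window was then 8.42%, against 45.3% as deposited. Where controls keep little cover there is little room for a fall, which limits the lower calls in that setting. Lower in every one of the 3 comparisons were 19 domains, and higher in both of the latter were 4.

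The domain of Trp53i11 (a p53-inducible gene) at chr2:93155690-93198506 was lower on every scale. Its cover was 84.1%, 93.1% and 75.5% in C, 6.78% and 5.19% in H, 67.7%, 81.2% and 78.4% in CC_s, and 10.9%, 2.06% and 13.9% in HC. In the 25-week cohort it was 89.3% and 91.3% in CC_l, 54.2% and 46.5% in HH, 91.4% and 92.3% in CCC, and 79.1%, 11% and 27.6% in HHC. No diet library reached its age-matched controls. The mean difference was -59.4 points (adjusted p = 0.00124 by exact permutation), -37.3 after centring (adjusted p = 0.00674 by exact permutation) and -48.1 at equal peak length (adjusted p = 0.0209 by exact permutation).

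The Fbln2 domain behaved alike. Set from all 20 libraries it spanned 82355 bp at chr6:91165291-91247645, and its cover was 81.2%, 88.1% and 80.3% in C, 1.33% and 6.52% in H, 62.8%, 74.3% and 72.2% in CC_s, and 8.99%, 0.678% and 6.82% in HC. It was 96.4% and 83.8% in CC_l, 60.7% and 34.7% in HH, 68.7% and 88% in CCC, and 33.3%, 45.2% and 16.3% in HHC. Again no diet library reached its controls. The difference was -58.2 points (adjusted p = 0.00124 by exact permutation), -36.1 after centring and -46.6 at equal peak length.

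Largest of all was the difference at the first chromosome 1 domain printed above, at chr1:183038304-183075295, with no start site. Cover was 72.6%, 80% and 75% in C, 3.12% and 2.71% in H, 63.6%, 59.8% and 74.6% in CC_s, and 36.5%, 0% and 0% in HC. In the 25-week cohort it was 65.5% and 75.1% in CC_l, 5.76% and 24.1% in HH, 76.6% and 75.7% in CCC, and 0%, 5.20% and 4.13% in HHC. The difference was -63.8 points (adjusted p = 0.00124 by exact permutation) and -41.7 after centring, but -21.2 at equal peak length (adjusted p = 0.0585 by exact permutation). Other domains without a start site with a difference of this size lay on chromosomes 1 and 12 and inside Prdm16, which encodes a regulator of brown and beige adipocytes, and Tasp1 (-63.7, -63.2, -62.1 and -59.5 points, each with an adjusted p of 0.00124 by exact permutation). At equal peak length none of these 4 passed (adjusted p 0.116 to 1 by exact permutation).

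Of the 33 domains lower at equal peak length, 14 held a gene of the developmental lists. The regulators of development and cell identity among the 33 included Fezf1 and Fezf2 (forebrain zinc finger factors), Irx1, Irx2 and Irx4 (Iroquois homeobox genes that lie in 1 cluster on chromosome 13), Msx1, Tlx3, Hmx1 and Lmx1b (homeobox genes), Sox2 (a pluripotency and neural factor), Foxf1, Gata3, Runx3, Bcl11a, Nr5a1, Casz1 and Fgf9. The Irx1 domain had 89.7%, 82.8% and 80.3% cover in C, 23% and 18.5% in H, 81.1%, 77.5% and 91.7% in CC_s, 64.9%, 24.2% and 45.7% in HC, 90.3% and 79.5% in CC_l, 72.8% and 60.1% in HH, 78.1% and 75.5% in CCC, and 40.6%, 61.7% and 34.8% in HHC. Its difference was -37.9 points (adjusted p = 0.00124 by exact permutation), -15.8 after centring and -45.5 at equal peak length.

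**Figure D4:**
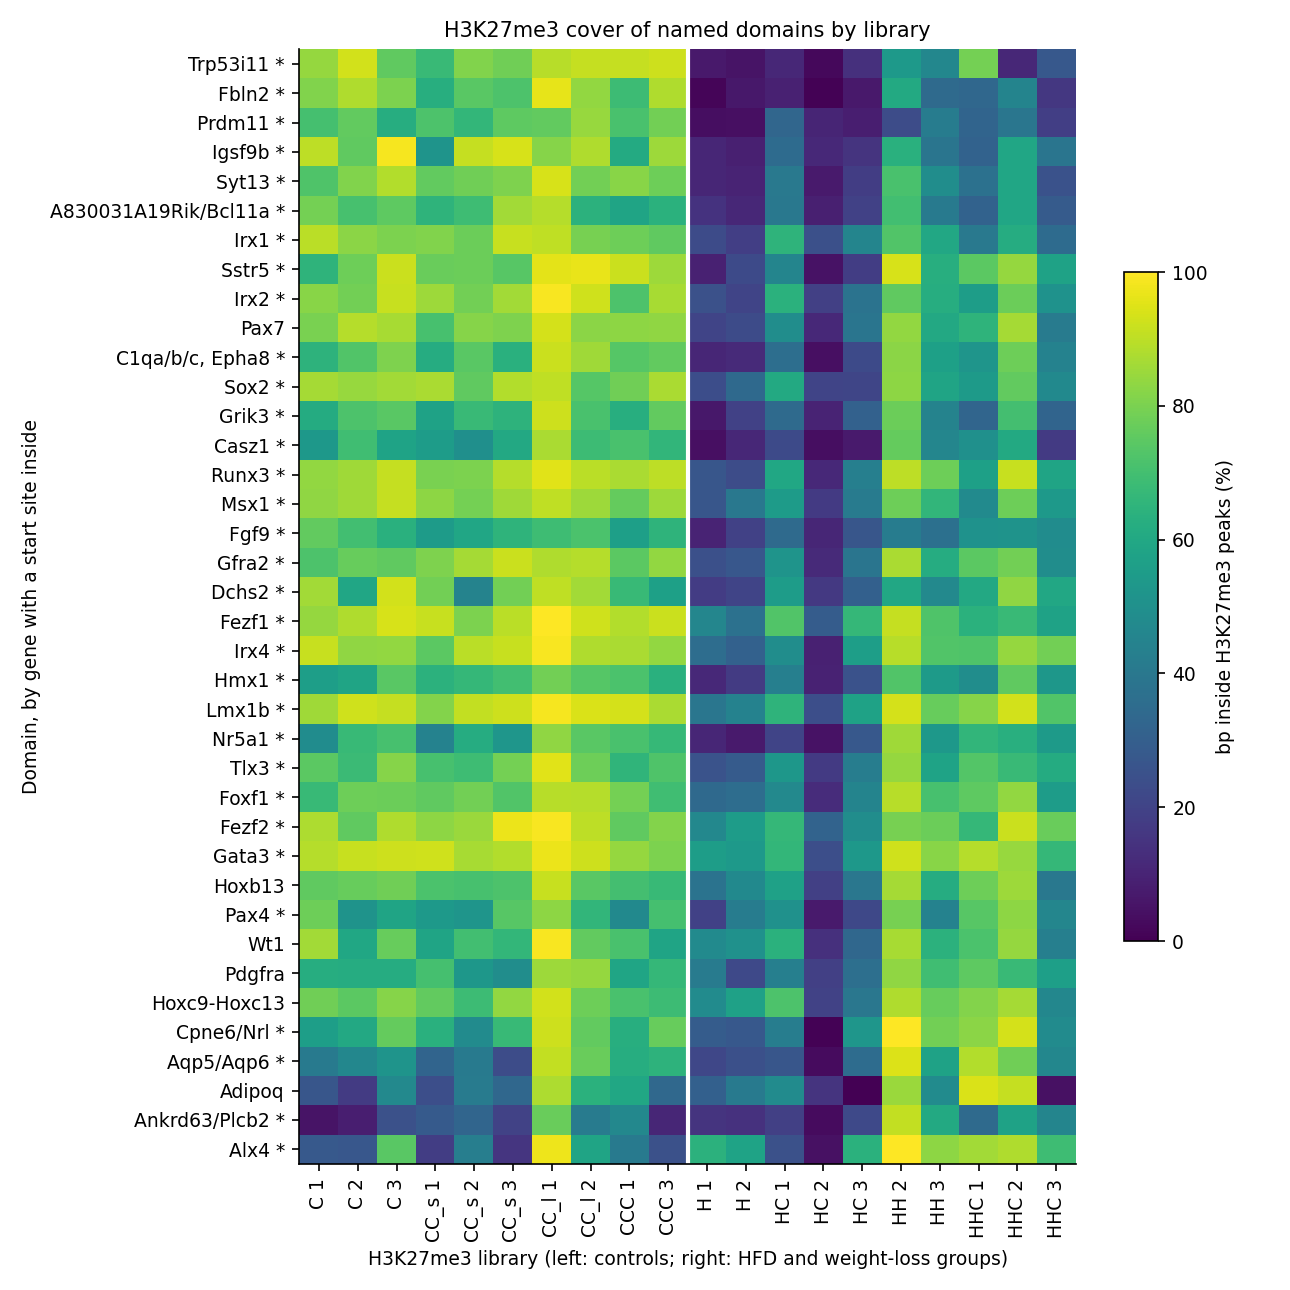
H3K27me3 cover (%, colour scale) of named domains (rows) in the 20 libraries (columns, controls on the left and HFD and WL groups on the right), where a star marks domains that passed at equal peak length. Trp53i11 and Fbln2 are at 62.8% or more in every control, at 13.9% or less in H and HC and in between in most HH and HHC libraries. Alx4 is higher in HHC than in CCC, with overlap in the other pairs of groups.

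On chromosome 2, domains with differences of opposite sign lay in 1 stretch of 794.9 kb. The domains of Syt13 (a synaptotagmin), Prdm11 and Trp53i11 followed each other, and the difference was -48.03, -53.04 and -59.4 points (each with an adjusted p of 0.00124 by exact permutation). Alx4, a homeobox gene of skull and limb development, has its start site at 765.2 kb of the stretch plotted and Trp53i11 at 310.4 kb, with Tspan18, Cd82 and Gm10803 between them. The Alx4 domain at chr2:93633409-93652097 had 27.9%, 27.1% and 74.5% cover in C, 64.1% and 57.8% in H, 18.2%, 42.8% and 15.3% in CC_s, and 24.7%, 4.34% and 63.9% in HC. It had 97.5% and 58.4% in CC_l, 100% and 83.2% in HH, 41.2% and 24.8% in CCC, and 85.9%, 88% and 68.9% in HHC. Only HHC and CCC did not overlap. The difference was 21.3 points (adjusted p = 0.0547 by exact permutation), 43.4 after centring (adjusted p = 0.00349 by exact permutation) and 47.5 at equal peak length (adjusted p = 0.0209 by exact permutation). Alx4 thus passed as higher relative to the other domains, whereas its higher cover as deposited did not pass.

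**Figure D5:**
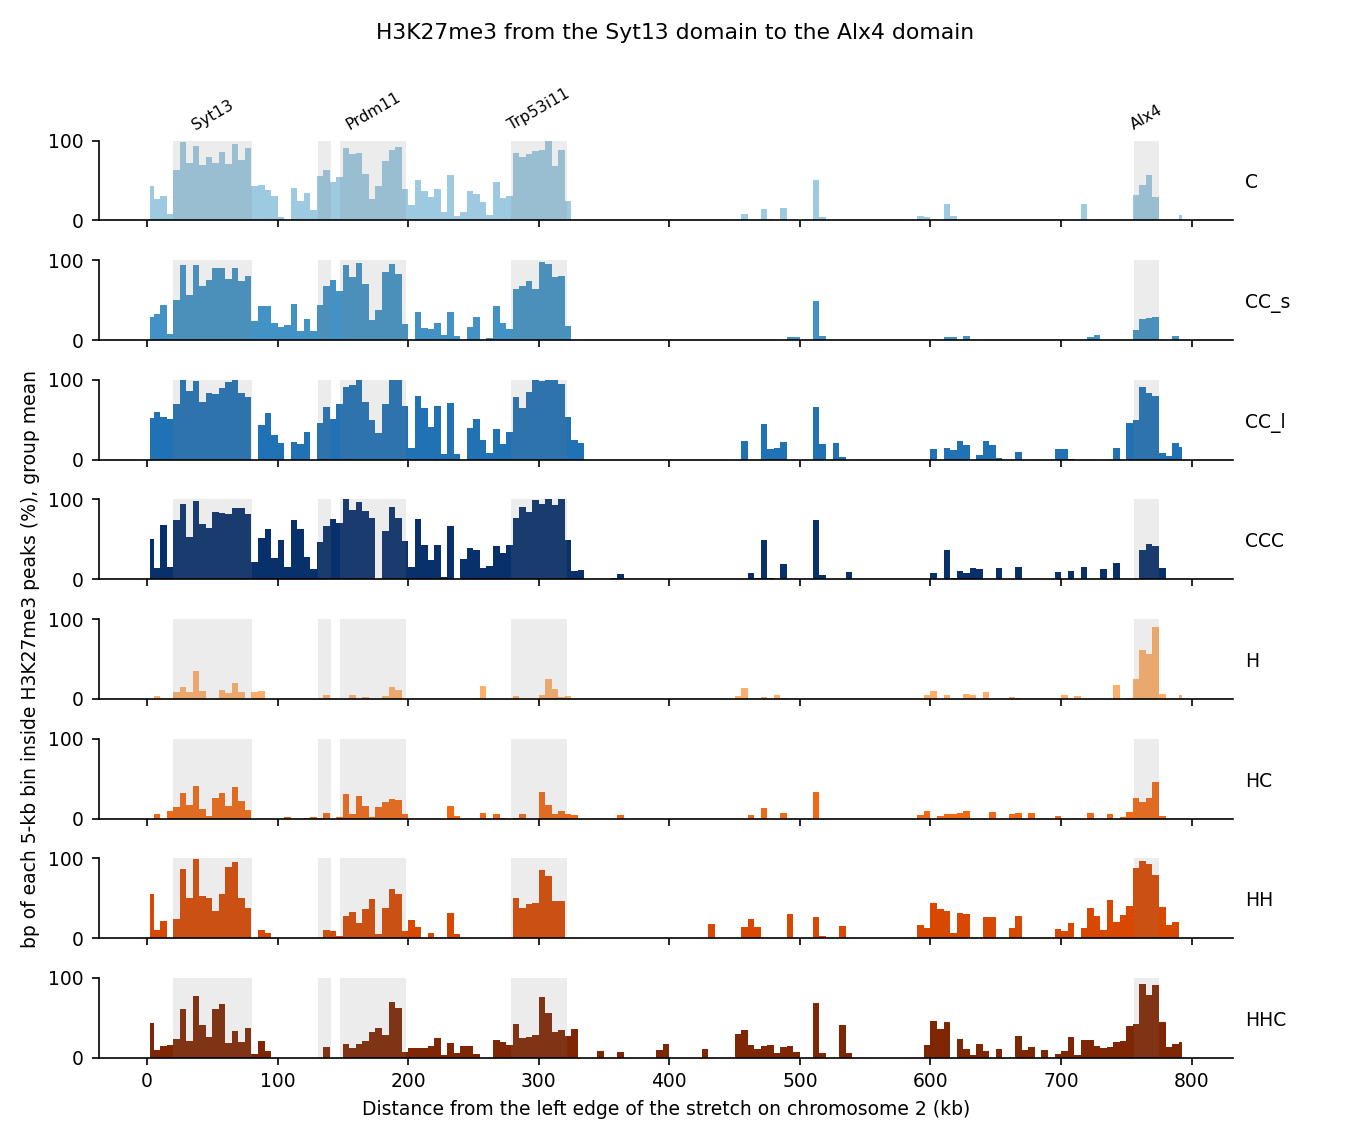
H3K27me3 cover (%) in 5000 bp bins over 794.9 kb of chromosome 2 (horizontal axis, kb from the left edge), as group means, with domains shaded and named. Control groups are high over Syt13, Prdm11 and Trp53i11, where H and HC are low (5.19% to 13.9% over Trp53i11, apart from 2.06% in HC replicate 2), while H, HH and HHC, and among controls CC_l, are high over Alx4 (97.5% and 58.4% in CC_l).

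Besides Alx4, domains higher at equal peak length were those of Aqp5 and Aqp6 (water channels), of Ankrd63 and Plcb2, of Cpne6 and Nrl, of Pax4 (a pancreatic endocrine factor) and 1 on chromosome 3 without a start site. Their differences at equal peak length were 19.3, 16.8, 39.4, 27.5 and 27.3 points, with adjusted p-values of 0.0209 to 0.0430 by exact permutation. In peaks as deposited the values were -8.69, 5.85, -13.5, -17.4 and 3.19 points, and none passed.

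The 5′ Hoxc domain had a smaller difference, which did not pass. It was 93938 bp wide and had 80.5%, 76.8% and 82.0% cover in C, 48.5% and 57.0% in H, 78.1%, 70.6% and 86.5% in CC_s, 73.6%, 19.97% and 39.5% in HC, 92.9% and 78.6% in CC_l, 87.3% and 77.4% in HH, 73.2% and 70.7% in CCC, and 80.5%, 88.1% and 46.1% in HHC. Set from all 20 libraries the difference was -14.8 points (adjusted p = 0.0563 by exact permutation). The domain of Hoxb13 had a difference of -19.2 points (adjusted p = 0.0248 by exact permutation), but 2.92 after centring (adjusted p = 0.532 by exact permutation) and -12.5 at equal peak length (adjusted p = 0.272 by exact permutation). The Pax7 domain had -35.8 points (adjusted p = 0.00271 by exact permutation), -13.7 after centring (adjusted p = 0.00473 by exact permutation) and -31.3 at equal peak length (adjusted p = 0.0530 by exact permutation).

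Of the 19 cell type markers inside domains, 14 lay in 12 domains of the table of 1590. Of these 12, 8 were lower, close to the background of 66.8%, 3 were lower after centring (those of C1q, Flt1 and Robo4) and 1 at equal peak length (C1q). Not passing were Adipoq, Wt1 (-15.8 points, adjusted p = 0.0603 by exact permutation), Bnc1 (-19.97 points, adjusted p = 0.0595 by exact permutation) and Pdgfrb (-0.478 points, adjusted p = 0.970 by exact permutation). The domain of C1qa, C1qb and C1qc, with Epha8 (an ephrin receptor gene), spanned 93360 bp when set from all 20 libraries. Its cover was 64.7%, 72.8% and 80.5% in C, 10.7% and 12.0% in H, 61.9%, 74.6% and 63.5% in CC_s, 36.3%, 4.11% and 22.6% in HC, 91.8% and 85.8% in CC_l, 82.6% and 56.9% in HH, 73.6% and 75.8% in CCC, and 52.3%, 78.0% and 44.2% in HHC. The difference was -35.7 points (adjusted p = 0.00225 by exact permutation), -13.5 after centring (adjusted p = 0.0053 by exact permutation) and -26.0 at equal peak length (adjusted p = 0.0209 by exact permutation). Over Flt1, the VEGF receptor of endothelium, mean cover was 81.7% in C, 25.9% in H, 71.3% in CC_s, 19.98% in HC, 93.7% in CC_l, 70.7% in HH, 71.1% in CCC and 49.2% in HHC, and the difference was -38.2 points (adjusted p = 0.00225 by exact permutation), -16.03 after centring (adjusted p = 0.00473 by exact permutation) and -27.07 at equal peak length (adjusted p = 0.113 by exact permutation). In the domains set from controls, mean cover over Wt1, Bnc1 and Erg was not lower in HHC than in CCC (62.2% against 60.99%, 63.6% against 59.6% and 43.03% against 42.2%). The domain of Pdgfra, a receptor of adipocyte progenitors, had a difference of -14.9 points (adjusted p = 0.0124 by exact permutation) but 7.21 after centring and -3.10 at equal peak length, neither of which passed.

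H3K4me3 at markers of other cells also varied between the groups, and these counts were not tested. The share of all promoters outside the domains with H3K4me3 varied too. Its mean was 61.9% in C, 54.5% in H, 53.9% in CC_s, 57.9% in HC, 65.5% in CC_l, 66.3% in HH, 65.5% in CCC and 67.05% in HHC. It was lowest in H replicate 3, at 45.8%, where no macrophage, lymphocyte, endothelial or progenitor marker was marked. Of 19 macrophage markers, 5 to 6 had H3K4me3 at their promoter in C, 0 to 15 in H, 0 to 3 in CC_s, 1 to 10 in HC, 6 in both CC_l libraries, 15 in both HH libraries, 4 to 7 in CCC and 14 to 16 in HHC. Of 14 endothelial markers, 4 to 9 were marked in C, 0 to 13 in H, 0 to 3 in CC_s, 2 to 11 in HC, 5 and 11 in CC_l, 13 in both HH libraries, 6 in both CCC libraries and 8 to 12 in HHC. Of 14 lymphocyte markers, 1 to 2 were marked in C, 0 to 2 in H, 0 to 1 in CC_s, 1 to 4 in HC, 1 and 3 in CC_l, 5 and 7 in HH, 1 in both CCC libraries and 8 to 14 in HHC. Of 12 mesothelial markers, 2 to 4 were marked in C, 0 in all H libraries, 0 to 1 in CC_s, 0 to 3 in HC, 3 and 5 in CC_l, 5 and 6 in HH, 4 and 5 in CCC and 3 to 6 in HHC. Of 10 neuronal markers, 2 were marked in all C libraries, 0 in all H libraries and 1 to 6 in HHC. Of 13 progenitor markers, 8 to 9 were marked in C, 0 to 9 in H, 1 to 5 in CC_s, 5 to 10 in HC, 8 and 9 in CC_l, 11 and 12 in HH, 9 and 10 in CCC and 10 to 12 in HHC, and of 9 mural markers 0 to 8 over all libraries. The promoters of C1qa and C1qb each had H3K4me3 in 2 of 3 libraries in H, 2 of 2 in HH, 1 of 3 in HHC and no control, and that of C1qb also in 1 of 3 in HC. That of C1qc had it in 2 of 3 in C, 2 of 3 in H, 1 of 3 in HC, 1 of 2 in CC_l, 2 of 2 in HH and 3 of 3 in HHC, and in no CC_s or CCC library. The part of other cell types in the lower H3K27me3 cover was not tested.

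The Adipoq domain, 57161 bp wide, stood out because it held an expressed adipocyte gene and peaks of all 4 marks. Its H3K27me3 cover was 26.7%, 17.4% and 47.3% in C, 30.4% and 40.96% in H, 24.0%, 41.8% and 33.3% in CC_s, 48.02%, 15.03% and 0% in HC, 87.3% and 64.1% in CC_l, 85.2% and 48.1% in HH, 59.3% and 33.9% in CCC, and 94.5%, 91.4% and 4.55% in HHC. The difference was 0.332 points (adjusted p = 0.980 by exact permutation). HC replicate 3 and HHC replicate 3 were low in every mark, with 5.70% and 5.65% in H3K4me3, 4.34% and 17.7% in H3K27ac and 1.03% and 6.45% in H3K4me1, where HHC replicates 1 and 2 had 80.9% and 94.2%, 93.8% and 95.3%, and 93.6% and 95.3%. HH replicate 1 was low as well, with 22.1% in H3K27ac and 9.12% in H3K4me1. As Adipoq sequence drives the Cre of these mice, reads of the transgene and of the gene itself cannot be told apart here.

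Other marks covered little of the control-set domains, and none of the 3 passed a test between groups. H3K4me3 cover was 2.72% ± 0.761 (SD, n = 3) in C, 1.298% ± 0.804 (n = 3) in H, 0.769% ± 0.394 (n = 3) in CC_s, 1.54% ± 1.19 (n = 3) in HC, 4.57% ± 0.414 (n = 2) in CC_l, 5.54% ± 0.105 (n = 2) in HH, 4.90% ± 0.0189 (n = 2) in CCC and 7.58% ± 1.70 (n = 3) in HHC. H3K27ac cover was at most 3.46% in a group mean (HHC) and H3K4me1 cover at most 5.94% (HHC). The WL differences were 1.73 points for H3K4me3, 1.43 for H3K27ac and 1.84 for H3K4me1, and the obese differences -0.227, 0.264 and 0.580, with adjusted p-values of 0.158 to 0.765 over 6 exact permutation tests. Of the H3K4me3 libraries, 4 name another group in their treatment field than in their title. The titles were used, and with the other field no call changed.

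At the promoters of genes inside domains, taken as 2000 bp on either side of each start site, active marks were rarer than at other promoters. No H3K4me3 peak was found in any of the 10 control libraries at 38.1% of the 1305 domain genes, against 29.6% of other genes, and 5.75% against 48.8% were marked in every one. No H3K27ac peak was found in 9 control libraries at 82.2% of domain genes against 38.6% of others. The share of domain promoters with H3K4me3 was 30.9% in C, 16.6% in H, 10.9% in CC_s, 22.1% in HC, 44.3% in CC_l, 45.4% in HH, 45.7% in CCC and 53.3% in HHC. It differed by -6.62 points in obesity and 9.44 after WL, and neither passed (adjusted p = 0.178 for both by exact permutation over 8 tests). For H3K27ac the values were 2.48 and 7.12 points, with adjusted p-values of 0.67 and 0.178 by the same exact permutation tests. Taken minus the share at other promoters, H3K4me3 differed by -3.26 and 6.69 points and H3K27ac by 6.76 and -3.27 points, with adjusted p-values of 0.178, 0.178, 0.12 and 0.67 by exact permutation.

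Among single domains, some that were lower in H3K27me3 held other marks in HH and HHC. In the Trp53i11 domain H3K27ac cover was 0% in all C and CC_s libraries, 3.43%, 0.965% and 0% in H, and 0%, 0% and 9.85% in HC. It was 7.96% and 0% in CC_l, 46.9%, 21.6% and 0% in HH, 0% in both CCC libraries and 22.9%, 9.81% and 48.5% in HHC. The highest values, in HH replicate 1 and HHC replicate 3, came from libraries that were low in H3K27ac over Adipoq. H3K4me1 there was 0% in all C and CC_s libraries, 6.98%, 5.63% and 0% in H, and 0%, 0% and 1.25% in HC. It was 4.95% and 0% in CC_l, 35.4%, 12.98% and 12.6% in HH, 4.05% and 0% in CCC and 33.7%, 24.0% and 40.4% in HHC, so that only the 25-week groups did not overlap. In the Fbln2 domain H3K4me1 was 2.20%, 1.90% and 0% in C, 4.87%, 3.92% and 2.00% in H, 0.695%, 0.806% and 3.44% in CC_s, and 9.99%, 4.84% and 5.30% in HC. It was 1.59% and 10.4% in CC_l, 11.4%, 25.3% and 16.8% in HH, 4.55% and 5.15% in CCC and 10.53%, 39.9% and 50.6% in HHC. In the C1q domain H3K27ac was 0% in all C and CC_s libraries, 0.753%, 1.15% and 0% in H, and 0%, 0% and 1.92% in HC. It was 1.39% and 0% in CC_l, 8.31%, 5.40% and 2.22% in HH, 0% in both CCC libraries and 10.46%, 0% and 3.22% in HHC. Other lower domains stayed nearly free of these marks: the promoters of Pax7 and Sox2 had neither H3K4me3 nor H3K27ac in any library. The domains for these values were chosen after the H3K27me3 values were seen, and no test was made.

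H3K27me3 itself reached most promoters of domain genes also in HFD and WL mice. A peak lay at 94.9% ± 1.67 (SD, n = 3) of these promoters in C and 77.4% ± 0.488 (n = 2) in H, 96.3% ± 1.11 (n = 3) in CC_s and 77.7% ± 11.9 (n = 3) in HC, 99.0% ± 0.542 (n = 2) in CC_l and 95.4% ± 1.90 (n = 2) in HH, and 97.5% ± 0.867 (n = 2) in CCC and 90.8% ± 4.69 (n = 3) in HHC. At all other promoters the share was 10.4% in C, 11.7% in H, 11.2% in CC_s, 10.8% in HC, 19.3% in CC_l, 19.99% in HH, 14.9% in CCC and 19.3% in HHC. In the same libraries the cover of the domains was far lower than these shares, as a promoter counts as marked with 1 bp of a peak.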

How the data were processed

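CUT&Tag peak lists of 84 libraries were used, 20 of them for H3K27me3. The authors trimmed, aligned and called peaks per library, and the submitters' processing notes name Trim Galore 0.6.6, Bowtie2 2.4.4, SAMtools 1.13, bedtools 2.30 and SEACR 1.3 with build mm10. The deposited values are unscaled coverage signal per peak, with no read totals, so depth is unknown and the peaks a shallow library lacks cannot be counted.

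Base pairs in peaks were counted with Python 3.11.15, numpy 2.4.6 and pandas 2.3.3. Genes came from the GRCm38 annotation, and promoters were 2000 bp on either side of a start site. The domains and gene lists were chosen with earlier results of these data known. Groups were taken from library titles. All tests were two-sided exact permutation tests with labels exchanged within age-matched groups and Benjamini-Hochberg adjustment, at a threshold of 0.05. Calculations were tested on simulated data. Named domains were the 10 widest, the widest of each list, the 5 on either side of the width limit, and at most 6 per direction of those that passed, by p and then size. Printed sequences were the windows with most CG pairs in up to 4 of the widest domains of listed genes and up to 2 that passed. All 39 domains that passed at equal peak length, and Syt13, Prdm11, Hoxb13, Flt1, Pdgfra and Adipoq, were named or counted after their values were seen. Domains shown for other marks and the near to far ratio were chosen after values were seen. Alternatives changed the share of libraries, gap, width, peak selection, libraries used, replicate block, centring and diet state, and the tests of single cohorts were added after seeing the data. A count model was not run, as peak lists hold no counts per library over common regions. Some single items are not reported here.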

Additional observations from a re-analysis of the deposited data

Results flagged for a closer look

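The difference in H3K4me3 over the domains between obese and control libraries had opposite signs in the cohorts. Cover by H3K4me3 peaks was 1.298% in H against 2.72% in C and 5.54% in HH against 4.57% in CC_l, with no overlap between the groups in either cohort, and the difference of the differences was -2.39 percentage points (two-sided exact permutation test over 120 labellings, p = 0.0167). Of promoters of domain genes, 16.6% had H3K4me3 in H against 30.9% in C, and 45.4% in HH against 44.3% in CC_l, a difference between cohorts of -15.3 points (p = 0.0333 by the same exact permutation test). Over the 19 relations examined, neither passed after Benjamini-Hochberg adjustment (adjusted p = 0.317 for both by exact permutation). All 4 libraries whose treatment field names another group than their title are 25-week H3K4me3 libraries. Grouped by that field, cover was 4.89% in HH against 4.94% in CC_l, the groups overlapped, and the difference between cohorts was -1.36 points (p = 0.233 by exact permutation), whereas that of promoters was -15.7 points (p = 0.0333 by exact permutation). Age, time on HFD and library set differ between the cohorts and cannot be told apart.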

How the results depend on the processing

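On domains set in the other cohort, obese cover, WL cover and WL share of peak length differed by -26.4, -22.0 and -6.21 points when 60% of controls were required, by -23.6, -18.8 and -6.09 points with a width of at least 20000 bp, and by -25.2, -19.4 and -5.85 points for domains from all 20 libraries. With gaps of 1000 bp they were -27.0, -24.1 and -2.84. None of these 12 values passed (adjusted p 0.0533 to 0.34 by exact permutation), and with gaps of 1000 bp the obese share of peak length reversed to 1.06. At equal peak length that share was -17.3 (adjusted p = 0.0333 by exact permutation), H3K4me3 at domain promoters in obesity reversed to 0.658 and H3K27ac at domain minus other promoters to -9.83. With an equal number of peaks, H3K4me3 at domain minus other promoters in obesity reversed to 1.59, and with only the stronger peaks of each library to 4.84, where H3K4me3 cover reversed to 0.0133. Single domains with a difference numbered 1071 as deposited, 383 after centring, 39 at equal peak length, 329 with the replicate block and 0 in obese groups alone (586 at an unadjusted p under 0.05), WL groups alone (611) or the 25-week cohort alone (123) by the exact permutation test. Those last 3 settings allowed 60, 200 and 60 labellings, against 12000 for all groups, which limits the calls they can give. The cause of the changes in number was not tested. Leaving out 1 library gave 819 to 1145 domains, obese cover of -28.3 to -17.6, WL cover of -20.5 to -15.0 and WL share of -12.1 to -7.58 points. Obese minus WL cover ran from -4.49 to 6.14 and reversed without HC replicate 2 (-2.14), HH replicate 2 (-4.49) or HHC replicate 3 (-1.08). In obesity, H3K27ac cover ran from -0.121 to 0.549, H3K4me3 cover from -0.373 to 0.00555 and H3K27ac at promoters from -0.179 to 4.55, and after WL H3K27ac at domain minus other promoters from -9.96 to 3.42. Same-numbered libraries correlated at -0.245 to 0.220 over 24 pairs, 6 of them over 0.1, and 5 of 20 libraries correlated best with their own number. With the replicate block the obese cover, WL cover and WL share differed by -12.3, -20.5 and -11.8 points and did not pass (adjusted p = 0.5, 0.125 and 0.125 by exact permutation). Exchanging labels only within same-numbered pairs left too few labellings for any of them to reach 0.05, so this setting cannot decide.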

Other observations

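Other domains passed as higher after centring but did not pass as deposited. For the domain of Sarm1 and Vtn (vitronectin, a plasma and matrix protein), mean cover was 28.8% in C, 18.6% in H, 30.6% in CC_s, 22.6% in HC, 53.8% in CC_l, 71.5% in HH, 33.1% in CCC and 45.8% in HHC. The difference was 3.05 points (adjusted p = 0.748 by exact permutation) and 25.2 after centring (adjusted p = 0.00349 by exact permutation). The domain of Adamtsl5 and Plk5 had 10.48 and 32.6 points, with adjusted p-values of 0.237 and 0.00349 by exact permutation. Neither passed at equal peak length (adjusted p = 0.128 for both by exact permutation). In the other direction, the domain of Ankrd6, a Wnt pathway protein, had a difference of -53.6 points and -31.5 after centring (adjusted p = 0.00124 and 0.00349 by exact permutation), but -16.96 at equal peak length (adjusted p = 0.749 by exact permutation).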
